A study of Mus musculus with 10 samples.

Results

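Calmodulin, the calcium/calmodulin-dependent protein kinase CaMKII and the phosphatase calcineurin were followed through 9 genes in left ventricular RNA: Calm2, Calm3, Camk2a, Camk2b, Camk2d, Camk2g, Ppp3ca, Ppp3cb and Rcan1. Their rows were picked by gene symbol from a deposited table of 55385 genes, and all 9 passed the filter on low counts that left 18491 genes to test. The Control group held 5 libraries from C56Bl6 mice (strain as spelled in the labels) on standard chow for 6 weeks. The HFpEF group held 5 libraries from C56Bl6 mice given fat-rich feed together with L-NAME, which blocks nitric oxide synthase, for 6 weeks to model heart failure with preserved ejection fraction. No sex or age is given in the sources used here, and nothing states that every library is a different mouse, so p-values cover the spread between these libraries, which may be partly technical. The series concerns arrhythmia in this model, and the comparison asks whether transcripts of this calcium-dependent signalling system differed between the groups.

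Calmodulin is a small protein that binds calcium and then switches other proteins on or off; several genes encode the same calmodulin protein. CaMKII is a kinase built from subunits of the alpha, beta, gamma and delta genes, with delta known as the main form in cardiac muscle, and it phosphorylates calcium and sodium channel proteins, the ryanodine receptor and phospholamban. Calcineurin is a heterodimer of a catalytic A and a regulatory B subunit. It removes phosphate from NFAT transcription factors, which then enter the nucleus, and the calcineurin inhibitor Rcan1 is itself an NFAT target with an inner start site that serves as a laboratory readout of calcineurin activity.

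Of the 9 genes only Calm3 was called at an adjusted p below 0.05, and it rose 1.16-fold. All adjusted p-values, unless DESeq2 is named, are edgeR quasi-likelihood p-values corrected by the Benjamini-Hochberg method across every tested gene. Of the tested genes 985 or 5.33% were called, so 1 call among 9 is read as a result for Calm3 alone. Fitted log2 fold changes (HFpEF against Control) were above 0 for 8 of the 9 genes and ran from -0.01 (Camk2a) to 0.21 (Calm3), with a median of 0.11 against -0.01 over all genes tested. At an unadjusted p below 0.05 there were 4 of the 9 and 3789 of the 18491. Camk2b and Camk2d had the lowest and the highest mean level of the 9, and 7099 tested genes lay in that range. Their median was 0.02, 56.2% had a fold change above 0, 7.99% were called and 1813 had an unadjusted p below 0.05.

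Library totals were 31555001 to 46108710 counts in Control and 31286355 to 33604554 in HFpEF, Control 4 and Control 5 being the deepest. Transcripts of the mitochondrial genome held 33.6% to 37.5% of counts in Control and 36.2% to 38.5% in HFpEF, and leaving them out of the totals changed no call among the 9. The ventricular label was compared with marker genes. The 7 cardiomyocyte markers summed to 25800 to 27600 CPM (counts scaled to a common library size, with TMM-adjusted totals) in Control and to 25100 to 27200 in HFpEF, with 1 of 7 called, Tnnt2, cardiac troponin T, lower by 0.22 on the log2 scale (-0.22 ± 0.05, SE; adjusted p = 0.0185 in edgeR, up to 0.0639 and no longer called without Control 1, HFpEF 2 or HFpEF 4). The 5 atrial markers summed to at most 2.45 CPM in any library. In bulk tissue, fewer cells of a type and less RNA per cell cannot be told apart.

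Calm2 and Calm3 show how genes of this family can be counted apart although they encode the same protein. Their reading frames, taken from GENCODE M21 transcripts, are each 450 bases long and differ at 78 bases, of which 74 are the third base of a codon. No stretch of more than 17 bases is identical. The first 120 coding bases of Calm3 are shown with capitals at the 18 positions where Calm2 has another base.
Calm3 coding start: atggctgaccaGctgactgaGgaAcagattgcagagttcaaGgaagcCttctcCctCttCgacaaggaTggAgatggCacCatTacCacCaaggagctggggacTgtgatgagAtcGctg
In the CaMKII genes, Camk2d shared 76.8% to 78.1% of aligned coding bases with the other 3, and its longest identical stretch with any of them was 23 bases. Ppp3ca and Ppp3cb shared 74.3%, with a longest stretch of 20 bases. No exon of the 9 genes overlaps an exon of another annotated gene.

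Rcan1 has 2 start sites in RefSeq, and 250 bases upstream of each are shown because the inner start is the one known for its response to NFAT. Capitals mark GGAAA, the core that NFAT proteins bind, or its reverse complement TTTCC. Build GRCm38.p6, minus strand, chr16:92466170-92466419 for the outer start and chr16:92400079-92400328 for the inner start, 5′ to 3′ on the strand of the gene.
Rcan1 outer: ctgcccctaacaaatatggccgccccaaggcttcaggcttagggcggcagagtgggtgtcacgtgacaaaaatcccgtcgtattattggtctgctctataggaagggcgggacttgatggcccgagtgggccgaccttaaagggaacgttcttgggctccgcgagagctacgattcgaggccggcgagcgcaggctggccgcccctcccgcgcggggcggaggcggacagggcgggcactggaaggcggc
Rcan1 inner: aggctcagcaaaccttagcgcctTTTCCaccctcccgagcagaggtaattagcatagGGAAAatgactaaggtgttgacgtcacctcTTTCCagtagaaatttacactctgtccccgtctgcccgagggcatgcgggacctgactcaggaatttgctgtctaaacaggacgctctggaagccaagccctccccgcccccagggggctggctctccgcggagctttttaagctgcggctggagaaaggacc
The outer window holds 0 matches to GGAAA on either strand and the inner window 3. Of 32851 RefSeq promoter windows of this length, 55.6% hold at least 1 match and 6.39% at least 3. The inner window also holds 2 overlapping matches, on opposite strands, to CGTCA, the core of a cAMP response element, and 3.9% of windows hold at least 2. Such matches describe the letters and not binding. The deposited counts are per gene and do not separate the 2 starts.

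Calm3 (ENSMUSG00000019370.10, chromosome 7, 16915379 to 16924114, minus strand, build mm10) encodes calmodulin. Its level was 60.2, 58.9, 56.2, 63.4 and 58.2 CPM in Control 1 to 5 and 65.4, 72.4, 67.3, 71.9 and 66.5 CPM in HFpEF 1 to 5. Every HFpEF library lay above every Control library, so the groups did not overlap. The share of all tested genes without overlap was not counted. Such statements, here and for genes below, are therefore descriptions only. The means were 59.4 ± 2.68 and 68.7 ± 3.26 CPM (SD, n = 5), a log2 fold change of 0.21 ± 0.05 (SE; 95% interval 0.11 to 0.31; edgeR adjusted p = 0.02). The call ended without HFpEF 2 (adjusted p = 0.0505) or HFpEF 4 (0.0578), with fold changes of 0.19 in both. Without Control 4 and Control 5 together it held (0.24, adjusted p = 0.0325).

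Calm2 (ENSMUSG00000036438.14, chromosome 17, 87433412 to 87446935, minus strand) encodes the same protein and was not called. It was measured at 34.2, 35.6, 30.0, 36.7 and 41.8 CPM in Control 1 to 5. In HFpEF 1 to 5 it was at 37.1, 40.6, 41.6, 38.4 and 35.8 CPM. All HFpEF libraries lay above the Control median of 35.6, but Control 5 was the highest of all 10 and the groups overlapped. The log2 fold change was 0.11 ± 0.07 (95% interval -0.04 to 0.27; edgeR adjusted p = 0.415), an interval that contains the estimate for Calm3. A difference between the responses of Calm2 and Calm3 was not tested. The ratio of Calm3 to Calm2 counts was 1.68 ± 0.181 in Control and 1.78 ± 0.101 in HFpEF (SD, n = 5).

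**Figure D1:**
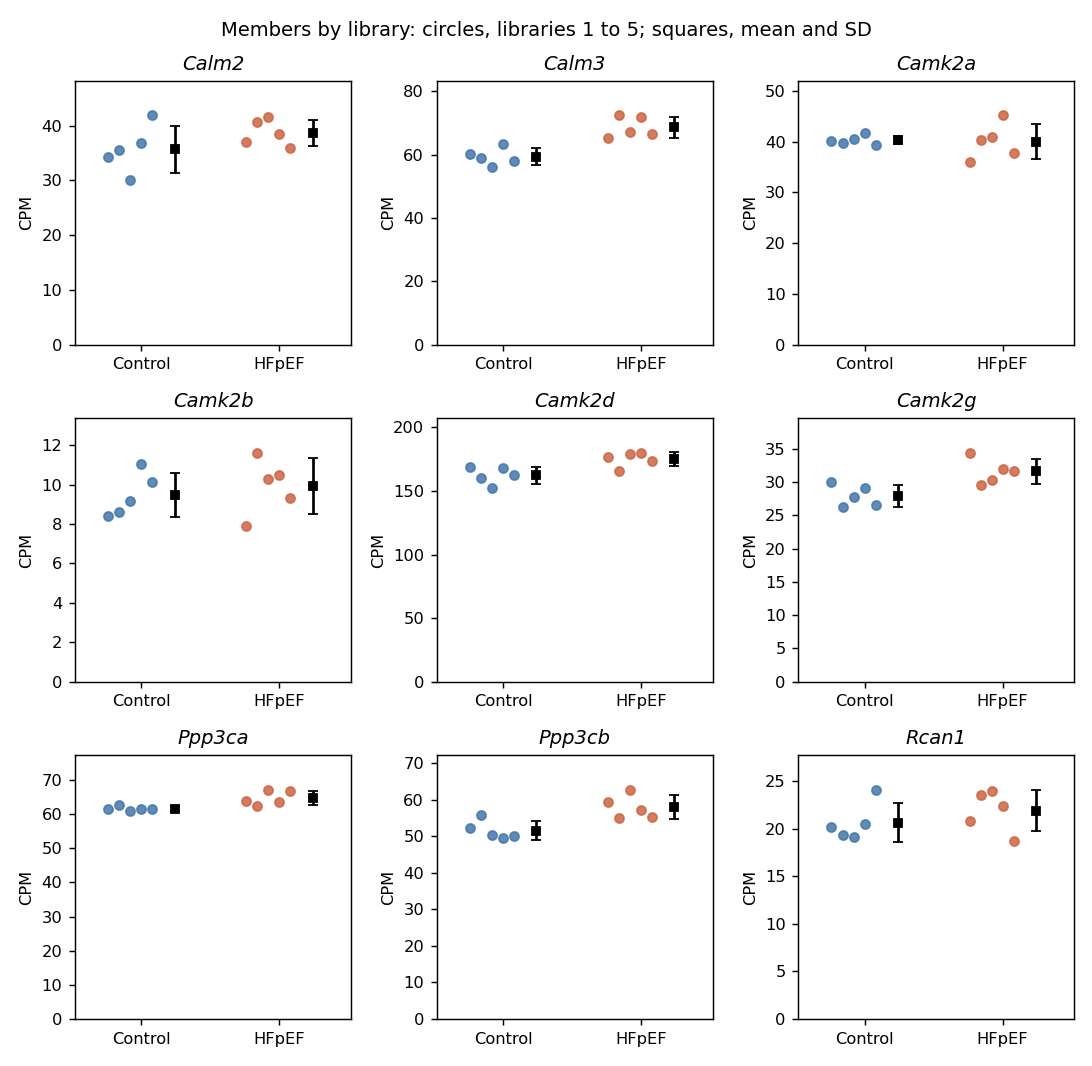
CPM (vertical axes, from 0) of the 9 genes in each of the 5 Control and 5 HFpEF libraries, shown as circles, with squares and bars for the group mean and SD. In the Calm3 panel every HFpEF circle (65.4 CPM and above) lies above every Control circle (63.4 CPM and below).

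Camk2d had the most counts of the 4 CaMKII genes, a share that depends on the transcript length it is set against (given with the levels per length). Camk2d (ENSMUSG00000053819.16, chromosome 3, 126596302 to 126846326, plus strand), the cardiac delta subunit, held 67.6% ± 0.83 of the counts of the 4 subunit genes in Control and 68.2% ± 1.01 in HFpEF (SD, n = 5). It stood at 169, 160, 152, 168 and 162 CPM in Control 1 to 5 and at 176, 166, 179, 180 and 174 CPM in HFpEF 1 to 5. In HFpEF 4 libraries lay above all Control libraries, and HFpEF 2 lay among them. Its log2 fold change of 0.11 ± 0.05 (95% interval 0.01 to 0.21) was not called (edgeR adjusted p = 0.187).

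Camk2g (ENSMUSG00000021820.18, chromosome 14, 20734875 to 20794088, minus strand) encodes the gamma subunit. Its Control values were 30.1, 26.3, 27.7, 29.15 and 26.55 CPM and its HFpEF values 34.4, 29.6, 30.3, 32.01 and 31.7 CPM. Here too 4 HFpEF libraries lay above every Control library, the exception being HFpEF 2, which was under Control 1. The log2 fold change was 0.18 ± 0.05 (95% interval 0.06 to 0.29; edgeR adjusted p = 0.0758), and DESeq2 called it (adjusted p = 0.0375). The ratio of Camk2g to Camk2d counts was 0.172 ± 0.00842 in Control and 0.181 ± 0.00941 in HFpEF (SD, n = 5), a difference within about the spread of the libraries.

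Camk2a and Camk2b encode the alpha and beta subunits, which are best known from brain; the Camk2a locus also makes alphaKAP, a protein of striated muscle without the kinase domain, from an inner start. Camk2a (ENSMUSG00000024617.16, chromosome 18, 60925618 to 60988152, plus strand) was at 40.2, 39.8, 40.45, 41.6 and 39.4 CPM in Control 1 to 5 and at 36, 40.3, 40.85, 45.2 and 37.7 CPM in HFpEF 1 to 5. The Control libraries were close to each other (coefficient of variation 2.08%), while HFpEF libraries fell on either side of them (8.73%), with HFpEF 1 and HFpEF 5 below and HFpEF 4 above all Control values. Its log2 fold change was -0.01 ± 0.06 (95% interval -0.13 to 0.11; edgeR adjusted p = 0.945). That estimate was above 0 when Control 4 (0.01), HFpEF 1 (0.03) or HFpEF 5 (0.01) was left out.

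Camk2b (ENSMUSG00000057897.14, chromosome 11, 5969644 to 6066362, minus strand) was the lowest of the 9 genes, with 252 to 509 counts a library. It stood at 8.42, 8.59, 9.15, 11.04 and 10.1 CPM in Control 1 to 5. The HFpEF values were 7.89, 11.6, 10.3, 10.5 and 9.33 CPM and spanned the Control range. Its log2 fold change of 0.06 ± 0.10 had a 95% interval from -0.15 to 0.28 (edgeR adjusted p = 0.786), so a change of up to 1.21-fold would lie within it.

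Since both subunits are nerve genes elsewhere, nerve and muscle markers are given beside them. The 7 neuron markers summed to 5.12 to 6.91 CPM in Control and 7.39 to 8.66 in HFpEF, and 3 of them passed the filter on low counts. Dbh, the noradrenaline-making enzyme of sympathetic nerves, was higher in HFpEF, at 2.32 ± 0.48 against 0.99 ± 0.249 CPM (SD, n = 5; 1.21 ± 0.19 on the log2 scale, edgeR adjusted p = 0.00168). The 7 Schwann cell markers summed to 14.1 to 18.4 CPM in Control and 16.5 to 26.1 in HFpEF, and 1 of 5 tested, Cdh19, rose (0.43 ± 0.09, adjusted p = 0.0135). Skeletal muscle markers summed to at most 0.939 CPM in any library and none passed the filter on low counts. The part of nerve transcripts in the values of Camk2a and Camk2b was not tested.

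None of calcineurin's catalytic genes was called by edgeR with all 10 libraries. Ppp3ca (ENSMUSG00000028161.17, chromosome 3, 136670124 to 136937727, plus strand), the A alpha subunit, was at 61.5, 62.7, 61.0, 61.7 and 61.5 CPM in Control 1 to 5. Its HFpEF values were 64.0, 62.4, 67.2, 63.45 and 66.8 CPM. The Control libraries varied by 1.04% of their mean, and 4 of the 5 HFpEF libraries exceeded them all. The fitted log2 fold change was 0.07 ± 0.04 (95% interval -0.02 to 0.16; edgeR adjusted p = 0.356), which bounds a rise at 1.12-fold.

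Ppp3cb (ENSMUSG00000021816.11, chromosome 14, 20499364 to 20546573, minus strand), the A beta subunit that is known for its part in cardiac hypertrophy, stood at 52.1, 55.7, 50.3, 49.5 and 49.97 CPM in Control and at 59.35, 55.0, 62.7, 57.2 and 55.1 CPM in HFpEF. In HFpEF 3 libraries lay above all Control libraries, and HFpEF 2 and HFpEF 5 lay just under Control 2. The log2 fold change was 0.17 ± 0.05 (95% interval 0.06 to 0.28; edgeR adjusted p = 0.07). It was called without Control 2 (0.21, adjusted p = 0.0448) and by DESeq2 (0.17, adjusted p = 0.026). The other genes of the enzyme, the A gamma gene Ppp3cc (0.03 ± 0.08, adjusted p = 0.884) and the B subunit gene Ppp3r1 (0.09 ± 0.06, adjusted p = 0.417), were not called either, which made 0 calls among the 4 calcineurin subunit genes tested by edgeR. DESeq2 called 1 of them, and 1 had an unadjusted p below 0.05, in both cases Ppp3cb.

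Rcan1 (ENSMUSG00000022951.16, chromosome 16, 92391953 to 92470867, minus strand), the inhibitor that calcineurin induces, was at 20.2, 19.3, 19.1, 20.5 and 24.1 CPM in Control 1 to 5 and at 20.8, 23.5, 24.0, 22.3 and 18.7 CPM in HFpEF 1 to 5. Control 5 was the highest and HFpEF 5 the lowest of all 10 libraries, and the groups overlapped throughout. The log2 fold change was 0.08 ± 0.08 (95% interval -0.08 to 0.25; edgeR adjusted p = 0.609). Without Control 5 it was 0.15 (adjusted p = 0.245). Its relative Rcan2 was far more abundant, at 172 ± 17.8 CPM in Control and 188 ± 20.6 in HFpEF (SD, n = 5; 0.12 ± 0.08, adjusted p = 0.433), and Rcan3 stood at 8.3 ± 0.537 and 8.16 ± 0.576 CPM (-0.03 ± 0.07, adjusted p = 0.873).

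**Figure D2:**
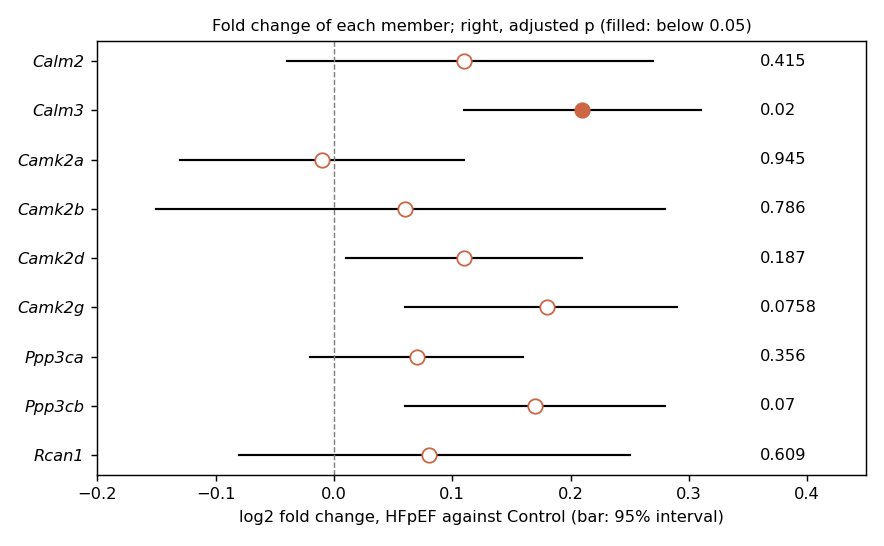
Fitted log2 fold change of each of the 9 genes (horizontal axis, HFpEF against Control) with its 95% interval as a bar and the edgeR adjusted p at the right; filled circles mark an adjusted p below 0.05. Calm3 at 0.21 is the filled circle, and the intervals of Camk2d, Camk2g and Ppp3cb also lie above 0 with adjusted p-values of 0.187, 0.0758 and 0.07.

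Levels of different genes were set side by side per length, as CPM per kb of the longest coding transcript. On that scale the Control levels were 29.6 ± 3.56 for Calm2, 29.4 ± 1.19 for Camk2d and 25.9 ± 1.17 for Calm3 (SD, n = 5), with Calm2 and Camk2d within each other's spread. Next came Ppp3cb at 13.4 ± 0.671 and Ppp3ca at 13.0 ± 0.135, again within their spread. Rcan1 (8.87 ± 0.872), Camk2a (8.10 ± 0.168) and Camk2g (7.55 ± 0.444) followed close together, and Camk2b was last at 2.35 ± 0.275 CPM per kb. This order depends on the length taken. Per kb of the median coding transcript, the Control levels were 42.7 for Calm3, 39.8 for Camk2d, 34.9 for Calm2, 34.0 for Camk2g and 29.7 for Camk2a, so that Camk2g and Camk2a lay above Ppp3ca (17.7) and Ppp3cb (16.2). Rcan1 (9.28) and Camk2b (4.92) came last. For Camk2d, exons jointly span 22493 bases against 5524 for the longest coding transcript. Per kb of all exons its Control level was 7.21 CPM, below Calm3 (24.5) and Calm2 (24.3) though still the highest of the CaMKII genes. Its share of CaMKII per kb was 62.0% ± 0.894 by the longest transcript and 40% ± 0.891 by all exons in Control. In HFpEF these shares were 62.4% ± 0.968 and 40.6% ± 0.978.

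**Figure D3:**
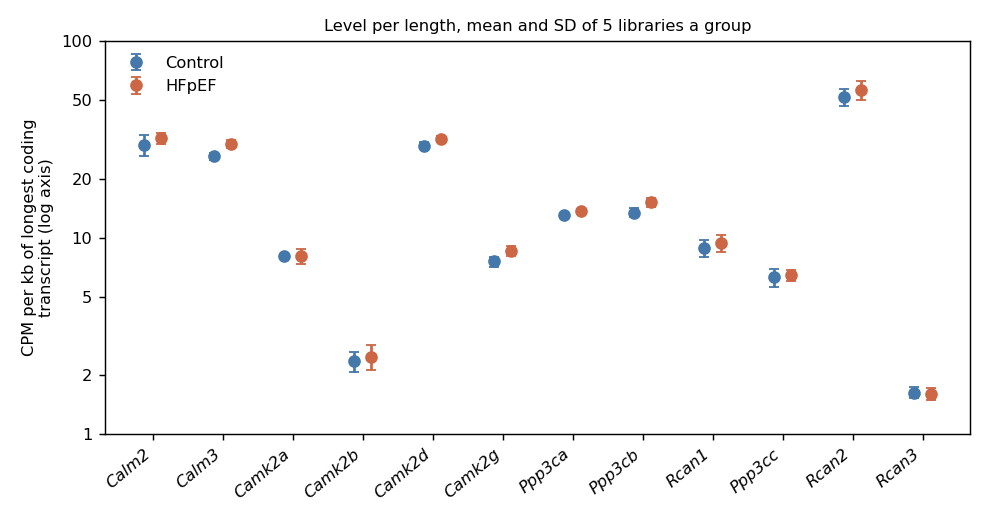
CPM per kb of the longest coding transcript (vertical log axis) for the 9 genes and for Ppp3cc, Rcan2 and Rcan3, with circles and bars for the mean and SD of 5 libraries in Control and in HFpEF. Calm2, Calm3 and Camk2d sit between 25.9 and 32.1 in both groups, and Rcan2 stands above them at 52.0 in Control and 56.7 in HFpEF.

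Once group means were taken out, some pairs of the 9 genes varied together across libraries and others did not. Over the 36 pairs, Pearson correlations of log2 CPM deviations (10 libraries, which share the scaling and depth of each library) ran from -0.50 to 0.84 with a median of 0.12, and 21 were above 0. The closest pair was Calm2 with Rcan1 (r = 0.84, Spearman rho = 0.89, and 0.87 without Control 3 and Control 5, the libraries with the most extreme Calm2). Calm3 had an r of 0.66 with Camk2a (0.77 without Control 4 and HFpEF 2), and of 0.69 with Camk2b that was 0.38 without Control 4 and HFpEF 2, the libraries with the most extreme Calm3. Camk2d and Camk2g had an r of 0.52. Calm2 and Calm3, which encode the same protein, had an r of 0.37. These values are descriptions of 10 libraries.

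Of 11163 other tested genes, those whose deviations were most like each of the 9 are given by r over the 10 libraries, again as a description. With so many candidates and so few libraries, high values of r also arise among unrelated genes, so no link is read from them. Calm3 was followed by Pias4 (0.97), Sox12 (0.92) and Tmem127 (0.92), and Calm2 by Cacybp (0.99), Tomm22 (0.99) and Lyrm7 (0.97). For the kinase genes the nearest were Cmss1, Trir and Itgb6 for Camk2d (0.90 each), Zfp512 (0.97), Ell (0.96) and Hdac8 (0.91) for Camk2g, Atp11a (0.94), Slc25a44 (0.93) and Gpsm1 (0.93) for Camk2a, and Orai3 (0.97), Sfr1 (0.96) and Mrpl11 (0.95) for Camk2b. For calcineurin they were Lancl2 (0.96), Cpd (0.93) and Dzip1 (0.92) for Ppp3ca and Arhgap5, Pcmtd1 and Pura (0.93 each) for Ppp3cb. Rcan1 was nearest to Alg12 (0.99), Pwp2 (0.96) and Pdpk1 (0.95).

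The surrounding pathway was read from 12 lists. Together they held 125 tested genes, of which 7 were called higher and 7 lower, 11.2% against 5.33% of all genes tested. The median log2 fold change was 0.05 against -0.01. The lists were written with earlier results of these data known and were not matched for level. The 2 shares are therefore not read as an excess. The split between directions was not stable. DESeq2 called 20 higher and 8 lower. With edgeR, higher and lower calls were 2 and 6 without Control 1, 2 and 8 without HFpEF 3, and 2 and 7 without HFpEF 4. They were 3 and 7 without HFpEF 2, and 2 and 5 without Control 4 and Control 5 together. In the other direction, they were 11 and 7 without HFpEF 1, and 9 and 6 without Control 4. Of the 4 calmodulin and calmodulin-like genes tested, 1 rose, Calm3, and the median was 0.11; Calm4 and Calm5 were at 0 in every library. Among 7 tested proteins that bind and hold calmodulin, 1 rose and 0 fell (median 0.09). It was Strn, the calmodulin-binding scaffold striatin, at 48.6 ± 2.14 CPM in Control and 55.7 ± 1.93 in HFpEF (0.20 ± 0.05, edgeR adjusted p = 0.0196; up to 0.0581 and not called without Control 1 or HFpEF 3).

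A list of CaMKII inhibitors, anchors and other possible partners counted 1 higher, 1 lower and 6 not called of 8 (median 0.03). Its called genes, Fhl2 and Kcnip2, are not read as inhibitors or anchors of the kinase. Fhl2, a LIM protein of the sarcomere, rose from 394 ± 9.66 to 447 ± 13.5 CPM (SD, n = 5; 0.18 ± 0.04, edgeR adjusted p = 0.0255), and its groups did not overlap. Its call ended without Control 1, HFpEF 2, HFpEF 3 or HFpEF 4 (adjusted p up to 0.0811). Kcnip2, a calcium-binding partner of potassium channels, fell (65.7 ± 8.02 to 52.3 ± 5.09 CPM; -0.33 ± 0.08, adjusted p = 0.0361), a call that 8 of the 10 omissions of a library ended (up to 0.0872), Control 3 and HFpEF 3 being the exceptions. The CaMKII inhibitor gene Camk2n1, at 13.5 ± 0.787 and 14.5 ± 1.44 CPM, was not called (0.10 ± 0.07, adjusted p = 0.446).

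Other kinases that calmodulin activates counted 0 higher, 2 lower and 15 not called of 17 (median -0.00), against 2 higher and 3 lower by DESeq2, 2 and 2 without HFpEF 1, and 1 and 3 with a minimum count of 50. Mylk4, a myosin light chain kinase family member, was at 288, 272, 243, 300 and 320 CPM in Control and 158, 213, 214, 208.5 and 203 CPM in HFpEF. All HFpEF libraries lay below all Control libraries, and the fall was 0.51 on the log2 scale (-0.51 ± 0.09, edgeR adjusted p = 0.00446). Camkk2, the kinase that acts upstream of CaMKI, CaMKIV and AMPK, fell from 14.1 ± 1.21 to 11.1 ± 0.567 CPM (SD, n = 5; -0.35 ± 0.07, adjusted p = 0.00843). Both calls held without any single library (adjusted p up to 0.0142 and 0.0289). The cardiac myosin light chain kinase gene Mylk3 was not called (-0.16 ± 0.05, adjusted p = 0.0681).

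A list of calcineurin inhibitors, anchors and other partners, Rcan1 among them, counted 0 higher, 3 lower and 15 not called of 18 (median 0.03). By DESeq2 or without Control 4 it counted 2 higher and 3 lower. The list mixes roles, so these counts are not read as a change in the inhibition of calcineurin. Akap5, the scaffold that holds calcineurin and protein kinase A near membrane channels, was at 13.8, 13.4, 14.1, 11.1 and 10.7 CPM in Control and 8.76, 6.79, 6.33, 7.23 and 7.32 CPM in HFpEF. Its groups were well apart, although Control 4 and Control 5 were lower than the other Control libraries (log2 fold change -0.79 ± 0.10, edgeR adjusted p = 0.000402). Cabin1, a calcineurin-binding repressor, fell from 44.6 ± 1.69 to 38.1 ± 1.11 CPM (SD, n = 5; -0.23 ± 0.04, adjusted p = 0.0076). Lmcd1, a LIM domain protein, fell from 15.5 ± 2.69 to 10.5 ± 1.14 CPM (-0.56 ± 0.11, adjusted p = 0.011). All 3 calls held without any single library (adjusted p up to 0.00204, 0.0272 and 0.0348).

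Of the NFAT factors that calcineurin activates, 0 of 4 were called by edgeR, and DESeq2 also called 0. Nfatc4 stood at 3.78 ± 0.206 and 3.24 ± 0.222 CPM (SD, n = 5; -0.22 ± 0.09, adjusted p = 0.172) and was the member with an unadjusted p below 0.05. Nfatc3 was the next by p (0.09 ± 0.05, adjusted p = 0.262). Kinases and partners of NFAT counted 1 higher, 0 lower and 13 not called of 14 (median 0.11), where DESeq2 called 5 higher and 0 lower. The riser was Homer2, a scaffold protein that binds NFAT (74.0 ± 4.8 to 87.0 ± 6.5 CPM; 0.23 ± 0.06, edgeR adjusted p = 0.0337), whose call ended without Control 1, 3 or 5 or HFpEF 2, 3 or 4 (up to 0.0939).

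Class IIa histone deacetylases are sent out of the nucleus by CaMKII and protein kinase D. A list of them, their carriers, protein kinase D genes and other partners counted 2 higher, 0 lower and 12 not called of 14 (median 0.05). By DESeq2 it counted 4 higher and 0 lower. Hdac4 was at 55.55, 48.4, 54.5, 64.0 and 50.9 CPM in Control and 65.8, 61.9, 66.0, 68.3 and 66.9 CPM in HFpEF, where Control 4 reached into the HFpEF range (0.27 ± 0.06, edgeR adjusted p = 0.0269). Hdac5 rose from 53.4 ± 3.22 to 61.3 ± 2.06 CPM (SD, n = 5; 0.20 ± 0.05, adjusted p = 0.0301) with no overlap between the groups. The call of Hdac4 ended without Control 1, Control 2, HFpEF 3, HFpEF 4 or HFpEF 5 (up to 0.0671), and that of Hdac5 without Control 3, HFpEF 2, HFpEF 4 or HFpEF 5 (up to 0.0722). Of the Hdac4 exonic bases, 22.4% lie opposite an antisense gene, and with the strand of the libraries not known the reads of both cannot be told apart.

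Among 19 tested CaMKII substrates of the cardiomyocyte, 1 rose and 0 fell (median 0.04), and 2 rose by DESeq2 or without HFpEF 1. It was the potassium channel gene Kcnd3, at 22 ± 1.79 CPM in Control and 26.4 ± 1.91 in HFpEF (SD, n = 5; 0.26 ± 0.07, edgeR adjusted p = 0.0301; up to 0.0887 and not called without Control 1, Control 4, Control 5, HFpEF 3 or HFpEF 5). Genes used as readouts of calcineurin and NFAT activity counted 0 higher, 1 lower and 12 not called of 13 (median -0.01). The faller was Nppa, atrial natriuretic peptide, at 57.0, 36.5, 49.4, 56.4 and 47.0 CPM in Control and 14.5, 28.1, 15.4, 28.4 and 21.8 CPM in HFpEF (-1.19 ± 0.22, edgeR adjusted p = 0.0187; 0.0872 and not called without Control 4 and Control 5 together). Antisense exons lie opposite 61.5% of the Nppa exonic bases, with the same limit as for Hdac4. Rcan1, in the same list, was not called, nor were Myh7 (-0.05 ± 0.11, adjusted p = 0.844) and Acta1 (132 ± 68.7 and 77.3 ± 36.9 CPM; -0.77 ± 0.52, adjusted p = 0.459), chosen here because they are the classic fetal muscle genes.

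**Figure D4:**
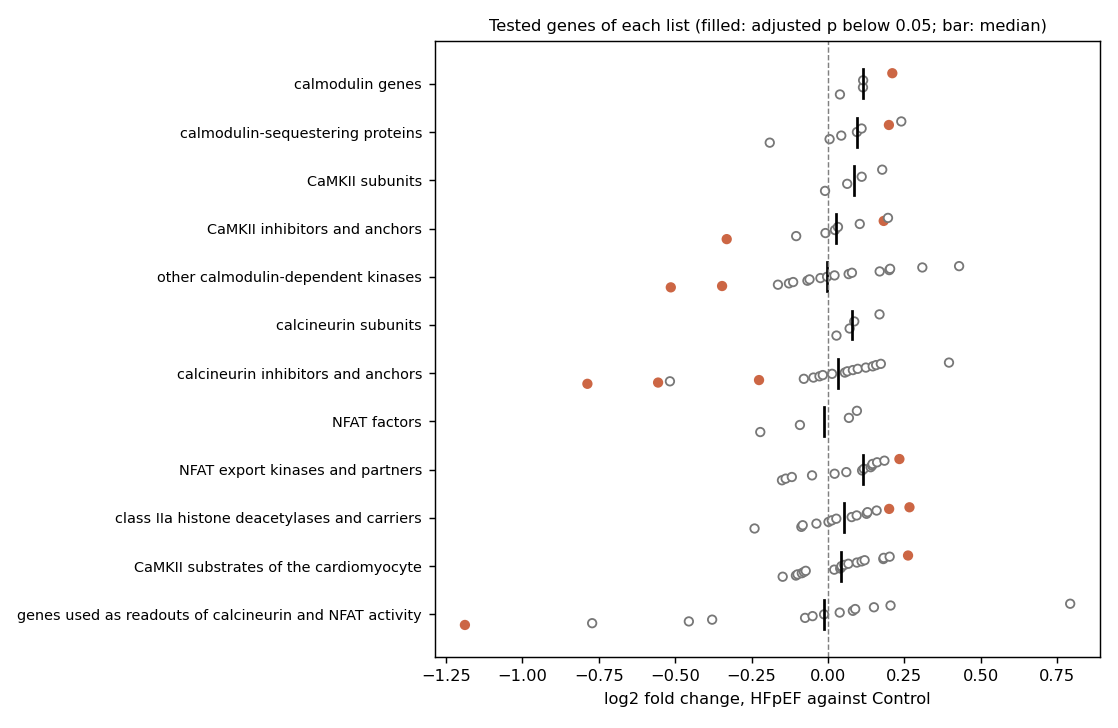
Log2 fold change (horizontal axis, HFpEF against Control) of every tested gene in each of the 12 lists, as circles filled where the edgeR adjusted p was below 0.05, with a bar at the list's median. Medians lie between -0.01 and 0.11, and the filled circles farthest to the left are Nppa at -1.19, Akap5 at -0.79, Lmcd1 at -0.56 and Mylk4 at -0.51.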

How the data were processed

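The deposited values are expected counts per gene, as RSEM estimates them, and were whole numbers in the file; whether the authors rounded them is not stated. The submitters' processing notes list Bowtie2 2.1.0, RSEM 1.2.15 and mm10, with no role given for any. Per the labels' protocols, libraries were made from total RNA after removal of ribosomal RNA. For strand and annotation release, the sources used here give nothing. The 92 spike-in rows, at 0 counts, were left out.

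From these counts, edgeR 4.0.16 (R 4.3.3) gave the calls: filterByExpr with a minimum count of 10, TMM scaling, robust quasi-likelihood fits with group as the only term, Benjamini-Hochberg adjustment at 0.05 and 95% intervals. CPM use TMM-scaled totals. The common coefficient of biological variation was 0.0965. Within each group every pair of libraries differed by more than sampling noise. Lengths of the longest and of the median coding transcript were added to union exon lengths after the data were seen. Coordinates and lengths are from GENCODE M21, matched by identifier, and promoter letters from RefSeq (5 of the 9 genes had an entry). Correlations used log2 CPM with a prior count of 2 and genes of mean log2 CPM of at least 1.

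Members, lists and the rule for named genes were chosen with earlier results of these data known. The rule names all 9 members, in each list the called genes or the 2 of smallest p, and the 3 genes most like each member; other genes with values were chosen after their values were seen. Some genes are not reported singly, though counts include them. Alternatives were RLE and upper quartile scaling, no filter, a minimum count of 50, DESeq2 1.42.0, limma-voom 3.58.1, the replicate block, totals without mitochondrial genes, each library left out, and Control 4 and Control 5 left out together. Same-numbered libraries did not deviate together.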

Additional observations from a re-analysis of the deposited data

Results flagged for a closer look

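Rcan1 in Control 5, at 24.1 CPM, stood apart from the other 4 Control libraries (19.1 to 20.5 CPM): its gap to the next library was 0.725 of the group's whole range, above the critical value of 0.71 for 5 libraries. It was the 1 such case among the 18 groups checked (9 genes in 2 groups), and chance alone flags about 1 group in 20. Control 5 had the largest total, 46108710 counts, the lowest mitochondrial share, 33.6%, and the highest Calm2, 41.8 CPM. The part of these in its Rcan1 value was not tested.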

How the results depend on the processing

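Leaving out 1 library at a time gave 554 to 1101 called genes in all (630 without Control 1, 554 without HFpEF 3 and 633 without HFpEF 4), 0 to 2 called members (0 without HFpEF 2 or HFpEF 4, 2 without Control 2) and 8 to 18 called genes in the pathway lists (8 without Control 1, 9 without HFpEF 4). Over the same fits the log2 fold change ran from 0.19 to 0.24 for Calm3, from 0.14 to 0.21 for Ppp3cb, from -0.056 to 0.026 for Camk2a and from -0.00077 to 0.14 for Camk2b, whose sign turned without HFpEF 2. DESeq2 called 3 members, Calm3, Camk2g (0.18) and Ppp3cb (0.17), and 28 pathway genes. Without Control 4 and Control 5 together 7 pathway genes were called, and Fhl2 (adjusted p = 0.0572), Hdac5 (0.111), Homer2 (0.096), Kcnd3 (0.137), Kcnip2 (0.13), Nppa (0.0872) and Strn (0.0848) were not among them. With the replicate block, Calm3 was the 1 called member (0.21, adjusted p = 0.0474), and 744 genes in all and 10 pathway genes were called. The block ended the calls of Strn (0.0635), Fhl2 (0.0932), Hdac5 (0.0776), Homer2 (0.0561), Kcnip2 (0.0834), Nppa (0.103) and Tnnt2 (0.0573). It turned the activity readouts to 1 higher and 0 lower and the list of calcineurin inhibitors, anchors and partners to 1 higher and 3 lower. Same-numbered libraries correlated at -0.11 to 0.0638, so the numbers are not read as pairs. Other scalings, other filters, limma-voom and totals without mitochondrial genes kept the member count at 1, and all 8 positive signs among members held in them. In the 19 alternatives the adjusted p of Calm3 ran from 0.000802 to 0.0578. Levels per length depend on the transcript length taken. The cause of the lost and gained calls was not tested.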

Other observations

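Markers of the other cell types that a piece of ventricle can hold are given here as values. The 7 smooth muscle and pericyte markers summed to 692 to 807 CPM in Control and 747 to 855 in HFpEF with 0 of 7 called, and the 7 fibroblast markers to 428 to 544 and 485 to 525 with 0 of 7 called. The 7 endothelial markers summed to 1000 to 1170.0 and 945 to 1150.0 CPM, and 1 fell, Emcn (-0.27 ± 0.07, edgeR adjusted p = 0.0447). Its call ended in 8 of the 10 omissions of a single library (edgeR adjusted p up to 0.119) and with limma-voom. Macrophage markers summed to 101 to 153 and 87.2 to 110.0 CPM with 0 of 7 called, all 7 having fitted fold changes between -0.40 and -0.21. Lymphocyte markers reached at most 2.49 CPM in any library. Adipocyte markers summed to 11.8 to 16.3 CPM, and only 1 of the 7, Fabp5, passed the filter (not called, edgeR adjusted p = 0.417). Adipoq had means of 0.078 CPM in Control and 0.0695 in HFpEF, and Cfd had 0.225 and 0.0311. The sum is therefore not read as an adipocyte signal. Erythroid markers summed to 440.0 to 636 CPM in Control and 412 to 713 in HFpEF with 0 of 6 tested called. The part of any of these cell types in the values of the calmodulin, CaMKII and calcineurin genes was not tested.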
